A study of Mus musculus with 10 samples.

Results

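The HoxB cluster was followed in its gene order, from Hoxb1 at the anterior end to Hoxb13 at the posterior end, in limb buds of mouse embryos with and without Dicer. The members were all probe sets whose annotation names exactly 1 of 10 listed HoxB genes, which gave 11 probe sets for 9 of the 10 genes, out of 18194 genes with a probe set of their own on the array. Hoxb8 had no probe set of its own. Each sample was hybridised to its own Affymetrix array, which reads a transcript as the fluorescence of a set of short probes, and 10 arrays were compared: 5 labelled wild type and 5 labelled mutant, numbered 1 to 5 in each group. The embryos came from a cross of parents with floxed Dicer alleles, a form of the gene that Cre recombinase removes. The prxcre driver, a Cre transgene active in limb mesenchyme, was carried by the parent heterozygous for the floxed allele, and the other parent was homozygous for it. By this cross each embryo, wild type ones included, inherits at least 1 floxed allele. The sources used here do not give the embryos' stage, the kind of limb, or whether heterozygous embryos are among the arrays. Whole limb buds also hold ectoderm, blood, vessels and nerve, cells other than the mesenchyme that the driver addresses, and in such a bulk sample fewer cells of a type and less RNA per cell cannot be told apart. Nothing in the labels says whether an array stands for a single embryo or a pool, so a p-value here covers only the spread from array to array, which may be technical.

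Hox genes encode homeodomain transcription factors that assign position along the body axis, and they are switched on in the order in which they lie in their clusters. HoxB genes are best known from the hindbrain, neural tube and trunk mesoderm, while the HoxA and HoxD clusters carry most of the patterning of the limb itself. Of the HoxB genes, Hoxb5 takes part in placing the forelimb field, and Hoxb8 expressed at the wrong place in the forelimb bud sets up an additional posterior signalling centre there. Dicer cuts precursor hairpins into mature microRNAs, and a pair of these hairpins lies inside the HoxB cluster. MiR-196 is a classic regulator of Hoxb8, whose mRNA it directs to cleavage, and miR-10 belongs to the same ancient set of Hox-embedded microRNAs.

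The mature microRNAs of these families are shown because they are what Dicer loss would remove from the cluster. In the RefSeq gene order of GRCm38.p6, Mir196a-1 lay between Hoxb13 and Hoxb9, and Mir10a lay next to Hoxb4 within the annotated span of Hoxb3. The sequences are those of RefSeq, written 5′ to 3′, with the seed (bases 2 to 8, the part that pairs with a target) in capitals.
mmu-miR-196a-5p: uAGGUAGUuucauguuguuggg
mmu-miR-196b-5p: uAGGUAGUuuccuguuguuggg
mmu-miR-10a-5p: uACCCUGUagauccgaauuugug
mmu-miR-10b-5p: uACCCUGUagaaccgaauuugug
The copy of miR-196a-5p in the HoxB cluster lies at chr11:96265187-96265208 on the plus strand, and miR-10a-5p at chr11:96317186-96317208, also on the plus strand. Their relatives come from the other clusters: a copy of miR-196a-5p with 0 differences at chr15:102973365-102973386 (Mir196a-2), miR-196b-5p at chr6:52230129-52230150 on the minus strand, and miR-10b-5p at chr2:74726074-74726096. Counted from 1 at the 5′ end, miR-196b differs from miR-196a by A12C alone and miR-10b from miR-10a by U12A alone, both outside the seed. The 2 families thus have 1 seed each, AGGUAGU and ACCCUGU. The array has no probe set annotated to Mir10a or Mir196a-1, so the microRNAs themselves were not measured.

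Dicer1 went against the labels in the arrays numbered 2. At probe set 1427941_at the wild type arrays 1, 3, 4 and 5 read 425.2, 372.4, 390.4 and 705.8, and their mutant counterparts read 225.6, 221.4, 214.6 and 204.9. Number 2 ran the other way, with 232.6 under the wild type label and 359.7 under the mutant label. The other Dicer1 probe set, 1460571_at, did the same, with 551.2 and 774.4 in the arrays labelled wild type 2 and Dicer mutant 2. Without number 2 the log2 differences were -1.08 and -0.57 (limma adjusted p = 0.0272 and 0.0282), and with all 10 arrays -0.74 and -0.36 (adjusted p = 1.00 for both). The sources used here do not say whether the probes fall inside the floxed stretch. Each HoxB and Dicer1 probe set is therefore given for the 10 arrays as labelled and for the 8 arrays without number 2. This choice was made with Dicer1 known, and no p-value is corrected for it. Differences of most other genes are given for the 8 arrays alone. The limb mesenchyme gene Prrx1 had signals between 2128.3 and 2897.9. All 8 listed mesenchyme markers passed the filter on low values, but so did all 7 listed surface ectoderm genes and all 5 endothelium genes. Passing the filter therefore does not tell these tissues apart. Median array signals lay between 145.9 and 152.8. Precision is limited by how few arrays there are.

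None of the HoxB genes differed between the labelled groups past the test. With the 10 arrays as labelled, limma called 0 of the 4 HoxB probe sets (Hoxb3 1456229_at, Hoxb4 1460379_at, Hoxb7 and Hoxb13) that passed the filter (a mean signal of at least 151 over all arrays) at a Benjamini-Hochberg adjusted p below 0.05, where 0.0% of all 22519 tested probe sets were called. In the 8 arrays it again called 0 of 4, against 1.68% of all tested (378, or 1219 and 5.41% with the replicate number as a block), 0.928% as higher and 0.75% as lower. Without the filter it called 0 of 11 in either comparison, where 0.0% and 0.655% of 45037 were called. An unadjusted p below 0.05 was reached by 0 of the 11, where 2.83% of all probe sets reached it in the 10 arrays and 9.25% in the 8, and by 0 of the 4 past the filter, where 2.81% and 12.7% did. In some alternatives single HoxB probe sets reached it: in the 8 arrays Hoxb3 1456229_at in 4 of 20 alternatives and Hoxb7, Hoxb9, Hoxb2 and Hoxb6 in 1 or 2, and in the 10 arrays Hoxb9, Hoxb2 and Hoxb7 in 3, 2 and 1 of 22. Many other probe sets reached it in such alternatives too. Where 22519 were tested, 2132 (pairs 4 and 5 alone) to 6864 (array weights) did so in the 8 arrays, with 4904 under the replicate block. In the 10 arrays 333 (without wild type 3) to 5172 (array weights) did. An exact permutation test on each probe set was the other check, and its lowest p belonged to Hoxb7.

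The sizes of the HoxB differences were small. Log2 differences, mutant minus wild type, ran from -0.21 to 0.12 in the 10 arrays with a median of 0.025, where the median over all 45037 probe sets was -0.011. In the 8 arrays they ran from -0.24 to 0.16 with a median of 0.058, where all probe sets had 0.0014. Of the 11, 7 were above 0 in the 10 arrays (44.6% of all probe sets) and 8 in the 8 arrays (50.6%). The 95% intervals of the fit reached from -0.50 to 0.31 in the 10 arrays and from -0.60 to 0.38 in the 8, so a log2 change of 1 in either direction lay outside each of them. The groups overlapped at all 11 probe sets in both comparisons, while they were apart at 0.422% of all probe sets in the 10 arrays and at 6.34% in the 8. These bounds hold for the signals: without detection calls the share of a dim signal that comes from the transcript is unknown, and a change in a transcript near background would be understated.

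**Figure D1:**
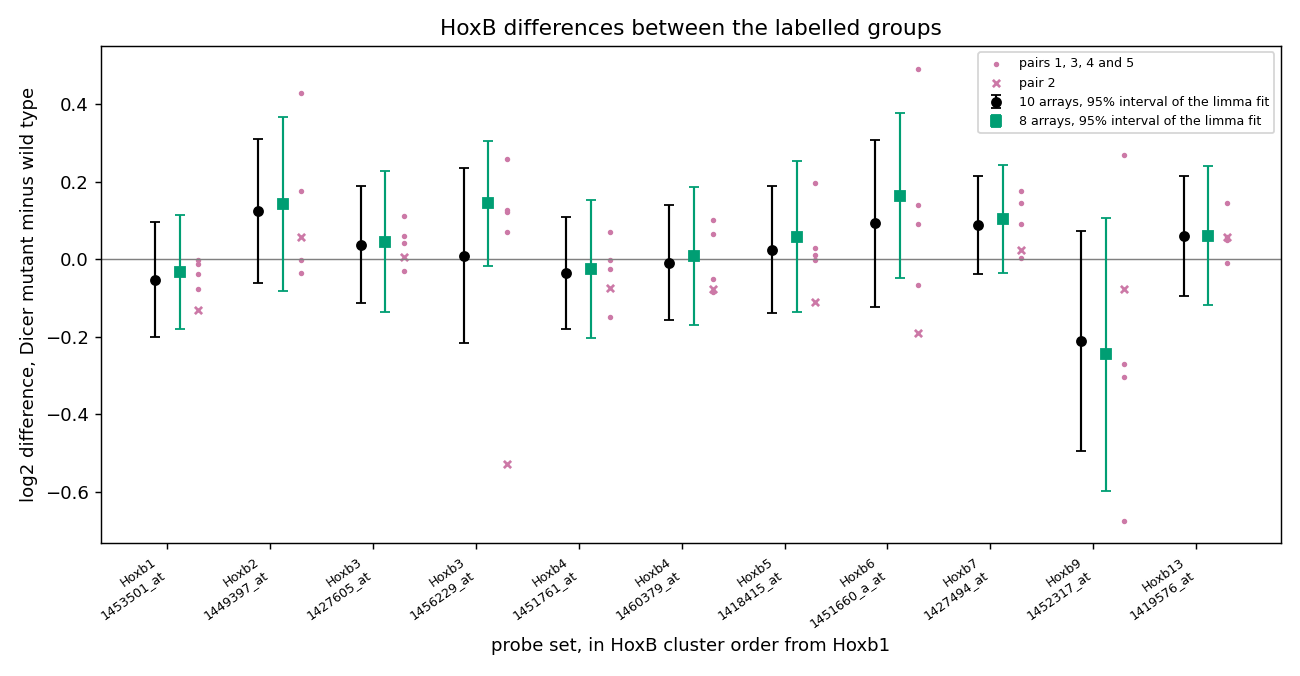
Log2 difference, Dicer mutant minus wild type, of each of the 11 HoxB probe sets in cluster order. Circles give the 10 arrays as labelled and squares the 8 arrays without number 2, both with 95% intervals of the limma fit; dots are the differences within pairs 1, 3, 4 and 5 and crosses those within pair 2. All intervals include 0, and the cross of Hoxb3 1456229_at stands at -0.53.

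At the anterior end, Hoxb1, which sets the identity of a hindbrain segment, had wild type signals of 66.0, 63.5, 65.7, 72.2 and 71.5 in arrays 1 to 5. The mutant signals of Hoxb1 were 65.9, 58.0, 64, 71.6 and 67.9. The groups lay over each other, although the mutant array was the lower in all 5 pairs, as it was for 3.66% of all probe sets (12.0% over the 4 pairs of the 8 arrays). The log2 difference of Hoxb1 was -0.053 (SE 0.069, n = 5 per group; limma adjusted p = 1.00) in the 10 arrays and -0.033 (SE 0.066, n = 4 per group; adjusted p = 0.966) in the 8.

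Hoxb2, which acts next to Hoxb1 in the hindbrain, had 104.0, 115.5, 112.4, 123.7 and 131.1 in wild type 1 to 5. In Dicer mutant 1 to 5 it had 117.5, 120.2, 151.4, 120.7 and 130.9. Dicer mutant 3 stood above all other arrays, and the rest of the mutant arrays lay within the wild type range. The difference of Hoxb2 was 0.12 (SE 0.085; adjusted p = 1.00) in the 10 arrays and 0.14 (SE 0.10; adjusted p = 0.807) in the 8, and pairs 1 and 3 gave 0.30 while pairs 4 and 5 gave -0.019.

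Hoxb3 was read by 2 probe sets. The brighter, 1456229_at, had 230.4, 251.9, 227.1, 203.1 and 205.7 in wild type 1 to 5 and 241.7, 174.7, 247.2, 221.8 and 246.0 in Dicer mutant 1 to 5. The lowest and the highest of the 10 values were those of the arrays labelled Dicer mutant 2 and wild type 2, so this probe set had its extremes where Dicer1 went against the labels. It was higher in the mutant array of pairs 1, 3, 4 and 5 and lower by 0.53 on the log2 scale in pair 2, a pattern of signs found in 12.0% of all tested probe sets. Its difference was 0.0095 (SE 0.10; adjusted p = 1.00) in the 10 arrays and 0.14 (SE 0.072; adjusted p = 0.467; 1.11-fold) in the 8, the smallest adjusted p of the cluster. With the replicate number as a block it stayed uncalled (adjusted p = 0.206).

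The dimmer Hoxb3 probe set, 1427605_at, did not repeat the pattern of the brighter one. It had 138.1, 131.6, 144.1, 127.5 and 124.1 in the wild type arrays and 135.2, 132.1, 155.8, 131.2 and 129.3 in the mutant arrays. Its number 2 values were nearly equal, and its difference was 0.037 (SE 0.069; adjusted p = 1.00) in the 10 arrays and 0.045 (SE 0.082; adjusted p = 0.960) in the 8. Of the HoxB probe sets outside the filter it was the nearest to it, with 133 and 136 as geometric means of the groups.

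Hoxb4, a gene known from blood stem cells and, with its group 5 neighbours, from the placing of the forelimb, was also read by 2 probe sets, both designed on the sequence AV307188. The brighter, 1460379_at, had 237.7, 222.0, 222.6, 211.8 and 195.4 in wild type 1 to 5 and 224.1, 210.6, 233.0, 204.3 and 209.6 in Dicer mutant 1 to 5. Each mutant value lay within the wild type range. The other, 1451761_at, stayed between 49.9 and 61.0 in all 10 arrays. The differences of both were close to 0, at -0.0090 (SE 0.068) and -0.036 (SE 0.067) in the 10 arrays and 0.0078 (SE 0.079) and -0.026 (SE 0.080) in the 8, with limma adjusted p of 0.984 to 1.00.

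In the middle of the cluster, Hoxb5 had 115.1, 115.0, 119.4, 93.1 and 105.2 in wild type 1 to 5 and 114.9, 106.6, 120.3, 106.7 and 107.2 in Dicer mutant 1 to 5. Wild type 4 held the lowest value and the other 9 arrays lay together. The difference of Hoxb5 was 0.025 (SE 0.075; adjusted p = 1.00) in the 10 arrays and 0.058 (SE 0.087; adjusted p = 0.948) in the 8. Hoxb6, a marker of posterior lateral plate mesoderm, had 42.4, 37.5, 32.5, 39.0 and 37.9 in the wild type arrays and 40.5, 32.8, 45.7, 43.0 and 40.3 in the mutant arrays. The lowest values came from wild type 3 and the array labelled Dicer mutant 2. Its difference was 0.093 (SE 0.099; adjusted p = 1.00) in the 10 arrays and 0.16 (SE 0.095; adjusted p = 0.71; 1.12-fold) in the 8, the largest positive value of the cluster. At signals of this size its distance from background is unknown.

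Hoxb7, a trunk gene whose paralogue Hoxa7 is a known miR-196 target, varied least of the members, by 1.13-fold from the lowest to the highest of the 10 arrays. It had 241.4, 239.1, 236.9, 237.0 and 259.4 in wild type 1 to 5. In Dicer mutant 1 to 5 it had 257.2, 243.3, 267.7, 262.2 and 259.8. The mutant array was the higher in all 5 pairs, as it was for 1.38% of all tested probe sets (13.4% over the 4 pairs of the 8 arrays), and the groups met only through wild type 5. The log2 difference of Hoxb7 was 0.088 (SE 0.058; limma adjusted p = 1.00) in the 10 arrays and 0.10 (SE 0.062; adjusted p = 0.584) in the 8. An exact two-sided permutation test on Hoxb7 alone gave p = 0.0317 in the 10 arrays and 0.0571 in the 8, where 0.0286 is the smallest that 4 against 4 arrays allow. This was the lowest exact p among the 11 probe sets tested in this way in each comparison, and it is not corrected for that number. A dimmer probe set annotated to both Hoxb7 and Hoxb8, which can be assigned to neither, did not repeat this. It was higher in the mutant array of 1 of 5 pairs, with a log2 difference of -0.058 in the 10 arrays.

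At the posterior end, Hoxb9, which shares with the other group 9 genes a role in starting Shh expression in the forelimb, had 54.8, 47.7, 55, 35.1 and 53.7 in wild type 1 to 5. It had 44.5, 45.2, 45.6, 42.3 and 33.6 in Dicer mutant 1 to 5. Wild type 4 fell below all mutant arrays but number 5, while the other wild type arrays stood above all mutant arrays. Hoxb9 varied most of the members, by 1.63-fold over the 10 arrays, and its difference was -0.21 (SE 0.13; adjusted p = 1.00) in the 10 arrays and -0.24 (SE 0.16; adjusted p = 0.767) in the 8. Without wild type 4 these became -0.33 and -0.40, still uncalled (adjusted p = 1.00 and 0.264). Without Dicer mutant 5, which held the lowest value, the difference in the 10 arrays shrank to -0.13, also uncalled. Hoxb13, which lies apart from the rest of the cluster and acts in the tail and the prostate, had 147.8, 158.5, 164.0, 138.7 and 139.4 in the wild type and 153.9, 164.9, 169.6, 153.3 and 138.5 in the mutant arrays. It was the probe set just inside the filter, with group means of 149 and 156. Its difference was 0.060 (SE 0.071; adjusted p = 1.00) in the 10 arrays and 0.061 (SE 0.080; adjusted p = 0.876) in the 8, and the mutant array was the higher in 4 of 5 pairs.

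**Figure D2:**
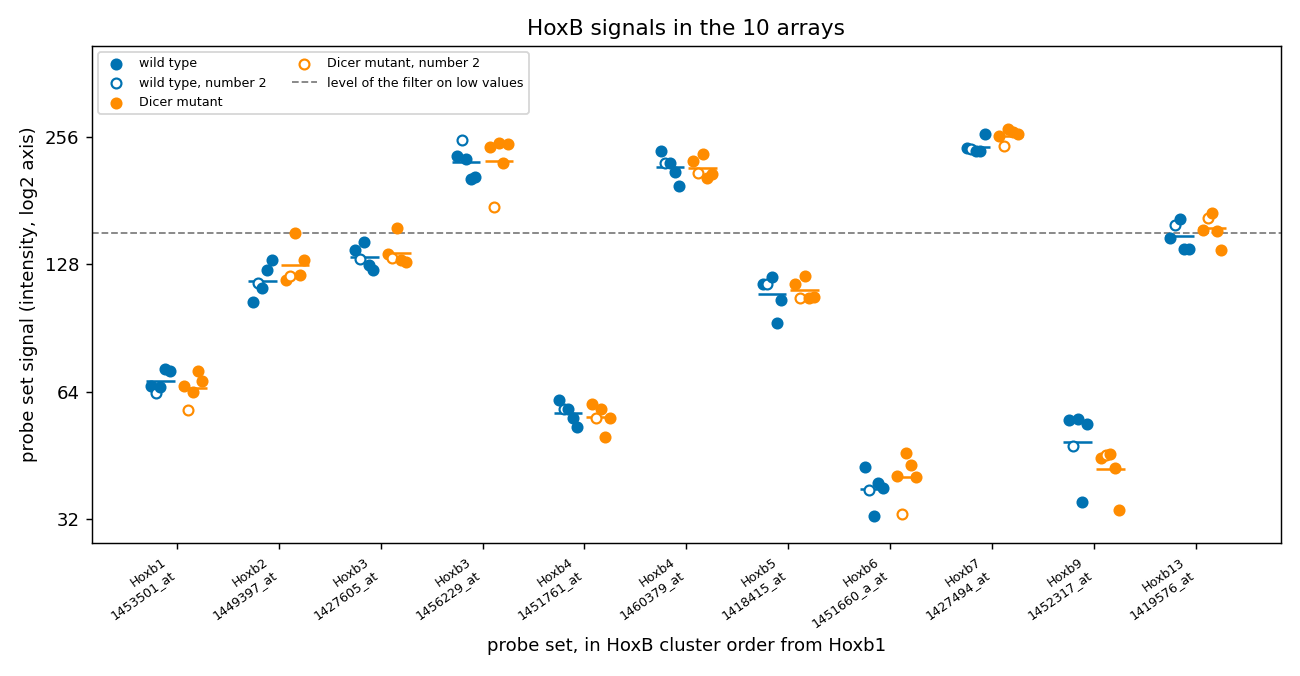
Signal of each HoxB probe set in each of the 10 arrays, on a log2 axis, in cluster order. Blue points are wild type and orange points Dicer mutant arrays, open points are the arrays numbered 2, short bars are geometric means of 5 arrays, and the dashed line is the filter at a signal of 151. The groups overlap at every probe set, and signals of different probe sets cannot be set against each other.

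The sign of the difference changed several times along the cluster. Read from Hoxb1 to Hoxb13 in the 8 arrays, the differences were negative at Hoxb1, positive at Hoxb2 and Hoxb3, close to 0 at Hoxb4, positive from Hoxb5 to Hoxb7, negative at Hoxb9 and positive at Hoxb13. Near Mir10a, Hoxb4 and Hoxb5 stood at 0.0078 and 0.058, with the brighter Hoxb4 probe set. Hoxb3, whose annotated span holds Mir10a, stood at 0.14 and 0.045 at its brighter and dimmer probe sets. The HoxB genes on either side of Mir196a-1, Hoxb9 and Hoxb13, stood at -0.24 and 0.061. All of these values had intervals that included 0. Differences between neighbours were not tested.

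The arrays also differed by replicate number. The first principal component of all tested probe sets (37.7% of the variance) set the arrays numbered 1 to 3 apart from those numbered 4 and 5, and the labels do not say what the numbers stand for. Of the 11 HoxB probe sets, 7 had a lower mean in numbers 4 and 5 (45.8% of all probe sets), and 2 showed no overlap (13.9%). Hoxb1 lay between 58.0 and 66.0 in numbers 1 to 3 and between 67.9 and 72.2 in numbers 4 and 5, with 6.92% of all probe sets apart in this direction. Hoxb3 at 1427605_at moved the other way, from 131.6 to 155.8 down to 124.1 to 131.2 (7.0% of all probe sets). Both Hoxb4 probe sets, Hoxb5, Hoxb9 and Hoxb13 had means lower by 0.13 to 0.26 on the log2 scale in numbers 4 and 5, where the median of all probe sets was 0.016. The summed signal of the 8 limb mesenchyme markers also differed with the numbers, at 10286 to 11737 in numbers 1 to 3 and 8451 to 9317 in numbers 4 and 5, and its part in the HoxB values was not tested. With the side of the split as a covariate limma again called 0 HoxB probe sets, and the smallest adjusted p in the 8 arrays was 0.162, at Hoxb3 1456229_at.

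**Figure D3:**
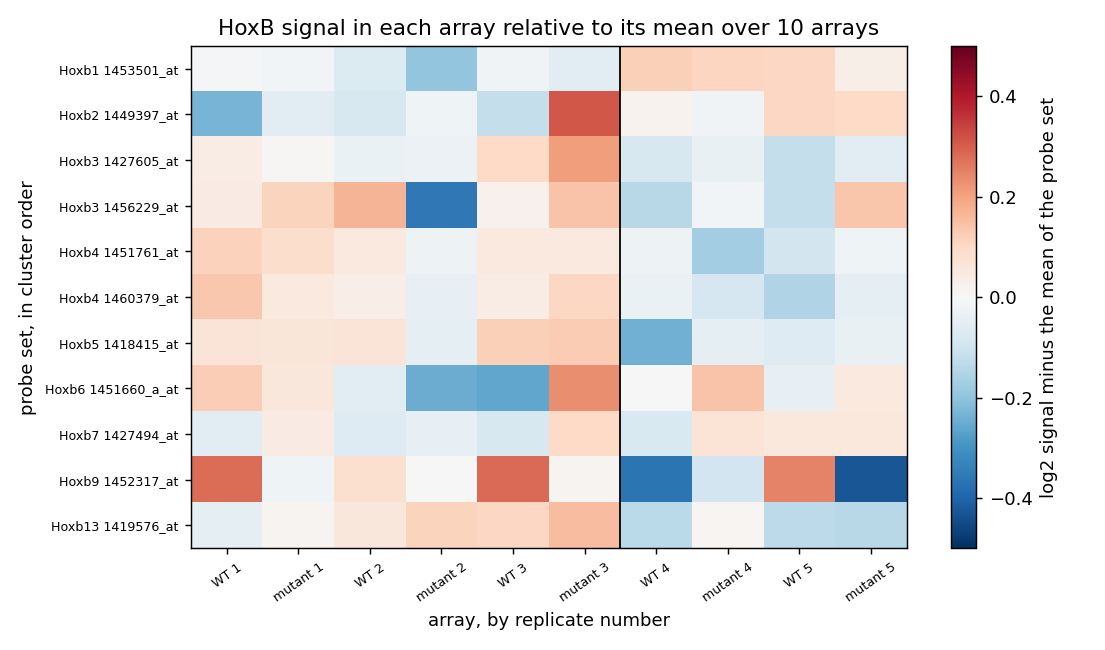
Log2 signal of each HoxB probe set (rows, in cluster order) in each array (columns, by replicate number) minus its mean over the 10 arrays, with red above and blue below the mean. The black line parts numbers 1 to 3 from 4 and 5; Hoxb1 is higher to its right, both Hoxb4 probe sets are lower there on average, and Hoxb3 1456229_at is lowest in the array labelled Dicer mutant 2.

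The genes whose signals most resembled the mean HoxB profile were Ccnjl, Slc25a22, Cnnm3, Fam214b and Tbx2. The profile was the mean of the centred log2 values of the 4 HoxB probe sets past the filter and ran from -0.097 in wild type 4 to 0.12 in Dicer mutant 3. Over the 10 arrays, which share their tissue, labelling and scaling, Pearson's r with it was 0.960 for Ccnjl, 0.958 for Slc25a22 and for Cnnm3, 0.955 for Fam214b and 0.952 for Tbx2. These are the highest of 11601 genes and a description only. Tbx2, a T-box repressor of the limb margins, had 243.2, 273.4, 214.8, 138.3 and 142.6 in wild type 1 to 5 and 255.5, 156.0, 335.0, 166.7 and 175.6 in Dicer mutant 1 to 5. Like the brighter Hoxb3 probe set, all 5 genes were higher in the mutant array of every pair but number 2. That probe set is part of the profile, so the choice of genes by likeness favours this pattern. Limma called none of the 5 genes in the 8 arrays (adjusted p = 0.276 to 0.731). With the replicate block Ccnjl was called as higher (0.49; adjusted p = 0.0291).

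The genes around and within the cluster were not called either. Hoxb5os, a noncoding RNA gene next to Hoxb6 in the gene order, was the only noncoding gene of the interval with a probe set and lay between 76.7 and 95.8 in all arrays (log2 difference 0.0042 in the 10 arrays, SE 0.073, and 0.069 in the 8, SE 0.071, adjusted p = 0.903). Of the genes within 5 places beyond Hoxb13, Atp5g1, a subunit of the mitochondrial ATP synthase, had -0.26 in the 8 arrays (SE 0.10; adjusted p = 0.308), Ttll6 -0.0087 and Calcoco2 -0.026. Beyond Hoxb1, Skap1 had 0.084 and Snx11 -0.064 (adjusted p = 0.879 and 0.733).

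Without the replicate block, HoxA was the only Hox cluster with called genes. In the 8 arrays limma called 2 of 7 tested HoxA genes as higher, 0 of 4 HoxC and 0 of 6 HoxD genes, against 1.68% of all probe sets, and 0 in any cluster with the 10 arrays as labelled. Median differences of these tested genes in the 8 arrays were 0.18 for HoxA, 0.032 for HoxC and 0.12 for HoxD. The 0.058 of HoxB has another basis, all 11 probe sets, of which 7 lay under the filter. The HoxB probe sets past the filter had 0.14 (Hoxb3), 0.0078 (Hoxb4), 0.10 (Hoxb7) and 0.061 (Hoxb13). The called genes were Hoxa9 (0.70, SE 0.072; adjusted p = 0.00282) and Hoxa7 (0.42, SE 0.081; adjusted p = 0.0394). Hoxd8, which like Hoxa7 is a known miR-196 target, was not called (0.44, SE 0.15; adjusted p = 0.216) but was with the replicate block (SE 0.072; adjusted p = 0.0244); the block changed no call in HoxA or HoxC. The other leading genes were Hoxd9 (-0.31, adjusted p = 0.224) in HoxD, and Hoxc5 (0.16, adjusted p = 0.476) and Hoxc6 (0.095, adjusted p = 0.857) in HoxC.

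Whether a HoxB gene moved unlike its paralogues was tested on the difference itself, for each tested HoxA, HoxC or HoxD gene with a HoxB gene of its number (10 pairs, exact two-sided permutation test). In the 8 arrays Hoxa9 exceeded Hoxb9 by 0.94 (SE 0.20) and Hoxa7 exceeded Hoxb7 by 0.32 (SE 0.085), each with exact p = 0.0286, the smallest that 4 against 4 arrays allow, and 0.143 after Benjamini-Hochberg adjustment over the 10 pairs. No adjusted p below 0.05 can be reached over 10 pairs of this size unless at least 6 pairs sit at that smallest value, and 2 did. In the 10 arrays the same differences were 0.61 (exact p = 0.0635) and 0.15 (exact p = 0.270). Hoxd13 lay below Hoxb13 by 0.12 (SE 0.041) in the 10 arrays, with exact p = 0.0159 and 0.159 after adjustment. In the 8 arrays it lay below by 0.12 (SE 0.052), with exact p = 0.0571 and 0.190 after adjustment. The Hoxb9 signal, at 33.6 to 55, was far under the filter while Hoxa9 lay between 2289.2 and 4239.8, so the comparison sets a dim probe set beside a bright one and the share of background in Hoxb9 was not tested. The same limit holds for the other pairs of Hoxb9 and for those of Hoxb5 and Hoxb6. Hoxb13, just inside the filter at 138.5 to 169.6, was set beside Hoxd13 at 2796.6 to 3455.5. Its share of background was not tested either. Hoxb5 (93.1 to 120.3) and Hoxb6 (32.5 to 45.7) lay under the filter, which every gene set against them had passed.

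**Figure D4:**
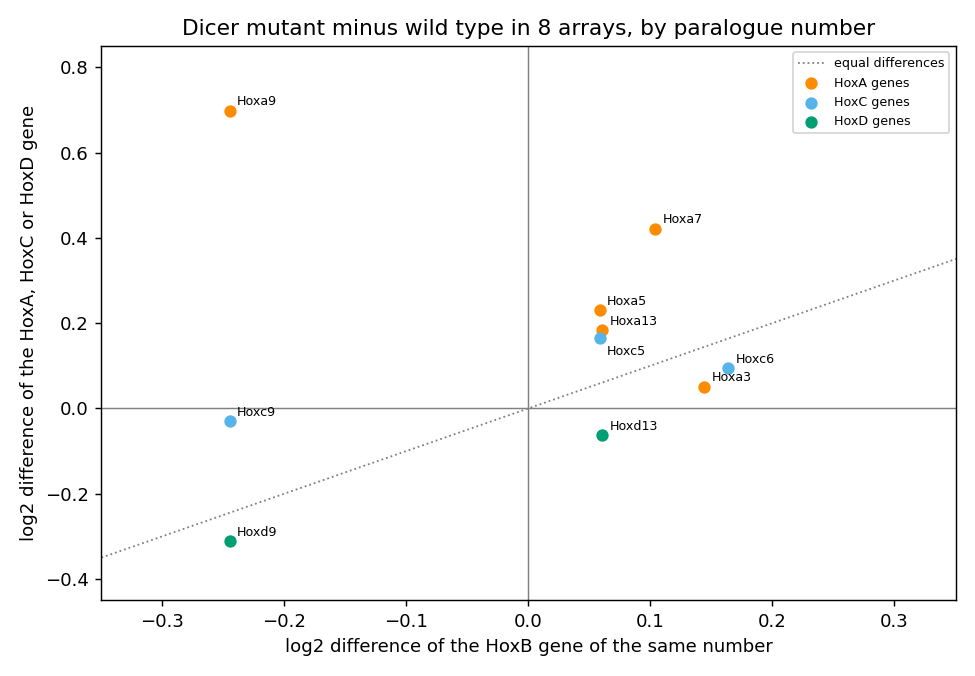
Log2 difference, Dicer mutant minus wild type in the 8 arrays, of each tested HoxA, HoxC or HoxD gene (vertical) against that of the HoxB gene of the same number (horizontal). Points on the dotted line have equal differences. Hoxa9 (0.70 against -0.24) and Hoxa7 (0.42 against 0.10) lie above it. Hoxb5, Hoxb6 and Hoxb9 lay under the filter.

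Of the genes that work with or upstream of HoxB, limma called 0 of 28 in either comparison (0.0% and 1.68% of all tested probe sets), and with the replicate block it called Aldh1a2 alone, where 5.41% of all tested were called. Of the Hox cofactors of the MEIS, PBX and PREP families, 0 of 7 tested were called (median 0.11 in the 8 arrays), led by Pbx3 (0.24, adjusted p = 0.224) and Pknox1 (0.16, adjusted p = 0.465). Of the upstream regulators, 0 of 14 were called (median 0.058): the retinoic acid receptors Rara and Rarg, the Trithorax genes Kmt2a and Men1, the Polycomb genes Bmi1, Ezh2, Eed, Suz12, Ring1, Rnf2, Cbx2 and Phc1, and Gdf11 and Gmnn. No Cdx gene of the list was among those tested. The smallest p were those of the Polycomb genes Ezh2 (0.17, adjusted p = 0.253) and Suz12 (0.27, adjusted p = 0.448). The genes linking Hoxb8 and retinoic acid with Shh had 0 of 8 called (median 0.071). Among them Aldh1a2, the enzyme that makes retinoic acid, had -1.03 (SE 0.39; adjusted p = 0.294, and 0.00275 with the replicate block, SE 0.080) and Shh, the posterior signal of the limb bud, 0.82 (SE 0.39; adjusted p = 0.436). In the 10 arrays the differences were -0.51 for Aldh1a2 and 0.52 for Shh. The signal of Aldh1a2 in the arrays labelled wild type 2 and Dicer mutant 2, 372.8 and 1080.6, again ran opposite to pairs 1, 3, 4 and 5. Aldh1a2 also differed with the replicate numbers, with a mean log2 difference of -1.11 for numbers 4 and 5 minus numbers 1 to 3.

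Markers of other tissues that a limb bud holds gave 0 calls among 37 genes in either comparison (0.0% and 1.68% of all tested probe sets) and 4 with the replicate block, where 5.41% of all tested were called. The tested genes were 2 of nerve and Schwann cells, 6 of blood, 5 of endothelium, 7 of surface ectoderm, 3 of muscle progenitors, 3 of somite and trunk, 8 of limb mesenchyme and 3 of limb type. Their median differences in the 8 arrays were -0.095, 0.077, -0.081, 0.057, -0.077, 0.043, -0.0037 and 0.0020 in this order. With the block limma called the white cell genes Ctss (0.43; adjusted p = 0.0773 without and 0.0197 with the block) and Tyrobp (0.49; 0.223 and 0.0164), but not the white cell gene Csf1r (-0.0059; 0.996 and 0.976). It also called the ectoderm keratin Krt14 (-0.39; 0.595 and 0.0435) and the hindlimb gene Tbx4 (0.58; 0.157 and 0.00705), but not the hindlimb gene Pitx1 (0.0020; 0.998 and 0.991). Some of the genes called with the block also differed with the replicate numbers. The mean log2 difference, numbers 4 and 5 minus numbers 1 to 3, was -0.73 for Krt14, -0.46 for Tbx4, -0.40 for Tyrobp and -0.063 for Ctss. Csf1r and Pitx1 were named after their values were seen. The part of these genes in the HoxB values was not tested. The other leading genes were not called with or without it: Elavl3 (-0.18) and Sox10 (-0.0095) of nerve, Pecam1 (-0.081) and Tek (-0.094) of vessels, Krt18 (0.13) of ectoderm, Myod1 (-0.077) and Myog (-0.079) of muscle, Pax1 (0.092) and Tcf15 (0.043) of somites, Msx2 (-0.18) and Msx1 (-0.092) of mesenchyme, and the forelimb gene Tbx5 (-0.21). Tbx5 lay between 481.0 and 766.0 in all 10 arrays. Summed signals over the 10 arrays overlapped between the groups in each list. For blood they were 25717 to 32008 in the wild type and 21158 to 36099 in the mutant arrays. The blood sum is mostly that of the globins, with Hbb-y at 8793.0 to 12103.8 and Tyrobp at 105.4 to 314.6. It therefore does not show whether the white cell genes overlapped.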

How the data were processed

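The authors deposited linear probe set intensities of 10 Affymetrix arrays on a common scale (2% trimmed means 276 to 289). The submitters' processing notes name GCOS 1.3. How probes were summarized, the scaling target and detection calls are not stated in the sources used here. Intensities below 1 were set to 1, log2 was taken, 64 control probe sets were left out, and the 22519 probe sets at or above the median mean log2 value were tested with limma 3.58.1 in R 4.3.3 (lmFit, eBayes with trend, Benjamini-Hochberg adjustment at 0.05). Members under the filter have values from the same fit without it. In simulated data with independent noise in each array, a log2 change of 1 was called in 94% of changed probe sets for 10 arrays and in 87% for 8. There 14 and 6 unchanged probe sets were called as well. The simulation had no pattern by replicate number, which the real arrays show, so these shares need not hold for the real arrays.

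Members and the 14 gene lists were chosen with earlier results of these data known. Named were all HoxB and Dicer1 probe sets, neighbours, the 5 genes most like HoxB, and from each list up to 4 called genes or up to 2 with the smallest p, at their brightest tested probe set. Deviations of same-numbered arrays correlated at 0.55, 0.55, 0.71 and 0.32 in the 8 arrays, above the 0.1 taken as the mark of pairing, and at -0.18 for number 2 in the 10. The highest correlation with another number was 0.54, 0.54, 0.52 and 0.52, so numbers 1 and 3 barely exceeded it, number 5 lay below it, and the pairing is not settled. The replicate block was run as an alternative beside others of scaling, offset, filter, weights and left-out arrays.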

Additional observations from a re-analysis of the deposited data

Results flagged for a closer look

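In 22 groups of 5 arrays (11 HoxB probe sets in each labelled group), 3 had a value far from the other 4 by Dixon's criterion, which chance meets in about 1 of 20 groups. Hoxb3 at 1427605_at had 155.8 in Dicer mutant 3, where the other mutant arrays had 129.3 to 135.2. Hoxb7 had 259.4 in wild type 5, while wild type 1 to 4 read 236.9 to 241.4. Hoxb9 had 33.6 in Dicer mutant 5, where the other mutant arrays had 42.3 to 45.6.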

How the results depend on the processing

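No alternative called a HoxB probe set in either comparison; the filter at the 70th percentile left 0 HoxB probe sets to test. The count over all probe sets in the 10 arrays stayed at 0 in every alternative except pairs 1 and 3 alone (812). The 378 calls of the 8 arrays became 2612 with array weights, 1219 with the replicate block, 1538 with the number side as a covariate (chosen after seeing the data), 812 in pairs 1 and 3 and 0 in pairs 4 and 5, and ranged from 93 (without wild type 3) to 745 (without wild type 5) when single arrays were left out. In the 8 arrays the block changed no HoxB or Dicer1 call and, of the genes named, added those of Hoxd8, Aldh1a2, Ctss, Tyrobp, Krt14, Tbx4 and Ccnjl.

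Signs of HoxB differences close to 0 turned in some alternatives, always without a call. In the 10 arrays Hoxb4 1460379_at gave 0.010 with quantile normalization, 0.0014 with centred medians and 0.025 in pairs 4 and 5, and with array weights Hoxb5 gave -0.011 and Hoxb13 -0.022. In the 8, array weights gave 0.0071 for Hoxb1, -0.012 for Hoxb3 1427605_at, -0.090 for Hoxb4 1460379_at, -0.0011 for Hoxb5 and -0.040 for Hoxb13, and pairs 1 and 3 gave -0.0095 for Hoxb4 1460379_at. Hoxb2 gave -0.019 in pairs 4 and 5. Leaving out single arrays of the 10 gave -0.011 to 0.067 for Hoxb3 1427605_at, -0.025 to 0.100 for Hoxb3 1456229_at, -0.063 to 0.0037 and -0.048 to 0.023 for Hoxb4 1451761_at and 1460379_at, and -0.032 to 0.057 for Hoxb5. For the 8 it gave -0.015 to 0.083 for Hoxb3 1427605_at, -0.061 to 0.027 and -0.041 to 0.053 for the Hoxb4 probe sets and -0.012 to 0.11 for Hoxb5. The cause of these changes was not tested. Dim signals limit the cluster: 7 of 11 probe sets lay under the filter. Dicer1 in the 8 arrays stayed lower in the mutant whichever array was left out, but its calls were lost in 5 and 6 of 8 such fits.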

Other observations

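A further probe set, 1452493_s_at, is annotated to both Hoxb7 and Hoxb8 and can be assigned to neither. Its signal was 101.9, 99.9, 97.6, 108.5 and 102.4 in wild type 1 to 5 and 99.1, 92.5, 106.3, 98.7 and 93.8 in Dicer mutant 1 to 5, all under the filter. The groups overlapped. Its log2 difference was -0.058 (SE 0.057, n = 5 per group) in the 10 arrays and -0.045 (SE 0.064, n = 4 per group) in the 8, with limma adjusted p of 1.00 and 0.946 without the filter. The 95% interval in the 8 arrays ran from 0.878-fold to 1.07-fold.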
